A study of Homo sapiens with 16 samples.

Results

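The response of SW480 cells to curcumin was examined across 10537 protein-coding genes, out of 60560 genes listed for the curcumin experiment, of which 19914 are protein-coding. A gene was included when it reached 1 FPKM (a level corrected for gene length and sequencing depth) in at least 2 of the 4 SW480 libraries, and 10198 of them reached it in all 4. A further 33 reached it in the curcumin libraries alone and 63 in the control libraries alone, and such genes had to differ between groups to enter. At the edge of the rule, SYT5 was included with a second highest value of 1 FPKM and PROB1 was left out with 0.999 FPKM. SW480 and HCT116 are human colorectal cancer (CRC) cell lines. SW480 cells were treated with curcumin for 16 h (2 libraries) and compared with SW480 cells labelled as non-treated (2 libraries). HCT116 cells, treated with curcumin for 16 h or not (2 curcumin and 2 control libraries), serve here for comparison only. The paper set the concentrations for its later experiments by cell line, with less curcumin for HCT116 than for SW480 cells. Differences between the lines therefore cannot be told apart from a difference in dose. The curcumin was a turmeric extract (BCM-95) that the study dissolved in DMSO, whether the controls received DMSO is not given in the sources used here, and neither is the concentration in the sample labels. Both lines were grown in medium with fetal serum, and the labels name no engineered allele in either. Whether the 2 libraries of each group stem from different cultures is not stated, so the p-values below reflect library-to-library spread that may be technical.

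Curcumin is the yellow polyphenol of turmeric and an electrophile that can react with protein thiols. Electrophiles of this kind are known to modify KEAP1, the protein that holds the transcription factor NRF2 for degradation, and NRF2 in turn drives genes for glutathione, thioredoxin and NADPH supply. A second general stress route, the integrated stress response, slows translation through phosphorylated eIF2 alpha while favouring the transcription factor ATF4. SW480 cells carry a truncated APC protein, which leaves the Wnt pathway constitutively active, whereas HCT116 cells carry a mutant beta-catenin.

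The depth estimated from the values was 9.4 M (megareads) and 23.11 M in the curcumin libraries and 15.67 M and 21.74 M in the control libraries. The first curcumin library was therefore the shallowest of all. Over the 10537 genes, the median absolute log2 difference was 0.09 between the curcumin libraries, 0.06 between the control libraries and 0.09 to 0.11 between a curcumin and a control library, so for most genes the difference between groups was close to that between libraries of a group. Of 19 colorectal epithelial markers, 10 were at 1 FPKM or more, with summed levels of 1012 and 1096 FPKM in curcumin cells and 1044 and 1051 FPKM in control cells. Intestinal differentiation markers such as VIL1, MUC2, CEACAM5 and TFF3 were under 1 FPKM, and KRT20 was listed at 0. Of 13 immune markers and of 12 fibroblast and endothelial markers, 1 each reached 1 FPKM, and the summed level of either list stayed under 3 FPKM in every SW480 library.

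Few genes passed after adjustment, and most of those differed by less than 2-fold. With 2 libraries per group this does not show how many genes changed. In limma 1549 genes (14.7%) had an unadjusted p under 0.05. In limma, with p-values adjusted by Benjamini-Hochberg over all 16341 genes tested, 40 of the 10537 genes passed an adjusted p of 0.05, or 0.38% (17 up, 0.161%, and 23 down, 0.218%), against 0.306% of all genes tested (0.129% up and 0.177% down). At the threshold that the study used, an unadjusted p under 0.05 with a log2 fold change beyond 0.5 either way, 100 genes passed, or 0.949% (39 up, 0.37%, and 61 down, 0.579%), against 1.95% of all genes tested (0.673% up and 1.27% down). These 100 are described below as genes at the study's threshold, and 34 of them are also among the 40. Log2 fold changes were computed on log2(FPKM + 1), so that low genes appear to change less than they do. Over all genes tested the median was -0.02. The adjusted calls depended on every library: without the first or the second curcumin library 1 and 0 genes passed, and 0 passed without the first or without the second control library. Leaving out an HCT116 library, which enters through the shared estimate of spread, left 0 (either curcumin library) or 15 (either control library). Counts at the study's threshold lay between 100 and 128 without an SW480 library and between 99 and 101 without an HCT116 library.

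**Figure D1:**
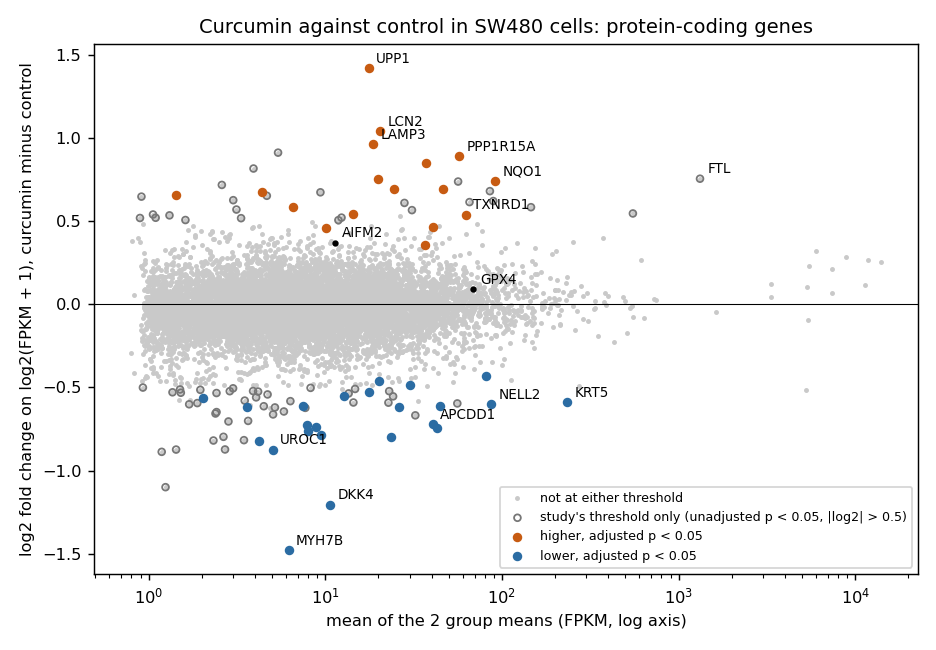
Log2 fold change (curcumin minus control, on log2(FPKM + 1)) against the mean level (FPKM, log axis) of each of the 10537 protein-coding genes in SW480 cells. Filled points are the 17 genes called higher and the 23 called lower at an adjusted p under 0.05, open circles passed only the study's threshold, and black dots mark AIFM2 and GPX4; most genes lie close to 0.

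The largest rise was that of UPP1, uridine phosphorylase, which releases uracil and ribose phosphate from uridine. UPP1 had 23.9 and 28.7 FPKM in curcumin cells, against 9.07 and 9.22 FPKM in control cells (2.87-fold, log2 fold change 1.42 ± 0.09 SE, adjusted p = 0.0190). The other 13 genes of the pyrimidine salvage and breakdown list did not pass, with thymidine kinase TK1 at 24.6 and 27.4 FPKM in curcumin cells and 34.9 and 33.9 FPKM in control cells (-0.39, adjusted p = 0.260). LCN2, lipocalin 2, which binds iron-carrying siderophores, had 29.7 and 26.1 FPKM in curcumin cells and 12.6 and 13.4 FPKM in control cells (1.04 ± 0.10, adjusted p = 0.0338). LAMP3, a lysosome-associated membrane protein inducible by cell stress, had 26.02 and 24.06 FPKM in curcumin cells and 12.01 and 12.70 FPKM in control cells (0.96 ± 0.09, adjusted p = 0.0338). These 3 genes were the only ones called higher with at least 5 FPKM in curcumin cells that rose by more than 2-fold. The groups did not overlap in any of the 17 genes called higher. Bulk RNA cannot tell a rise in every cell from a larger share of cells with high expression, and likewise fewer cells of a type and less RNA per cell cannot be told apart.

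**Figure D2:**
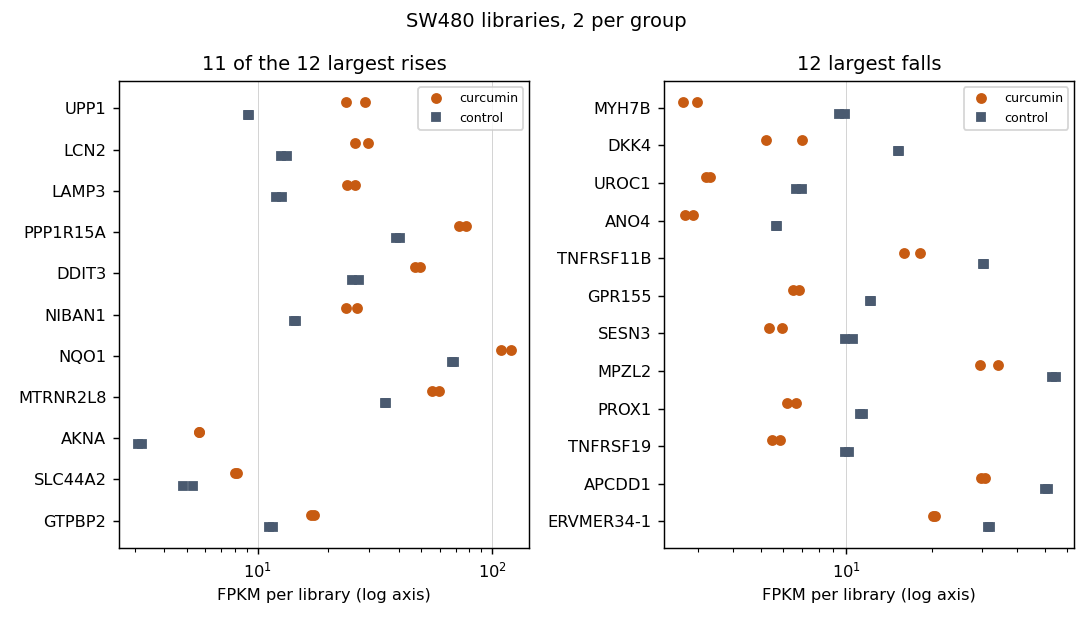
FPKM (log axis) in each SW480 library for 11 of the 12 largest rises (left) and the 12 largest falls (right) among genes with an adjusted p under 0.05 and at least 5 FPKM in the higher group; circles are curcumin libraries and squares control libraries, drawn above and below each gene's line. Separated curcumin and control libraries were a condition for being shown, so all 23 genes have them, from UPP1 at the top of the rises to MYH7B at the top of the falls.

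Genes known as NRF2 targets were higher as a group. This list and those below were chosen with earlier results of these data known. The shares over all genes beside their counts therefore describe the lists and do not test them. Of 28 measured, 4 passed the adjusted threshold, all higher, and 8 passed the study's threshold, all higher. In 23 of the 28 both curcumin libraries lay above both control libraries, against 21.8% of the 10537 genes, and in 1 both lay below. At an unadjusted p under 0.05, 19 were higher and 0 lower, against 14.7% of the 10537 genes in either direction. The list's median log2 fold change was 0.35, beside -0.02 over all genes tested. NQO1, a quinone reductase, had 109.7 and 120.2 FPKM in curcumin cells, against 67.8 and 68.9 FPKM in control cells (0.74 ± 0.09, adjusted p = 0.0495). NQO1 was higher in each curcumin library than in either control library. TXNRD1, thioredoxin reductase, had 73.42 and 75.01 FPKM in curcumin cells and 51.64 and 49.92 FPKM in control cells (0.54 ± 0.06, adjusted p = 0.0338). GCLC, the catalytic subunit of the rate-limiting enzyme of glutathione synthesis, had 11.9 and 11.8 FPKM in curcumin cells and 8.36 and 8.34 FPKM in control cells (0.46 ± 0.05, adjusted p = 0.0338).

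Several further NRF2 targets reached only the study's threshold. TXN, thioredoxin itself, had 637.3 and 672.3 FPKM in curcumin cells and 446.3 and 449.4 FPKM in control cells (0.55, adjusted p = 0.173). The ferritin light chain FTL had 1486 and 1842 FPKM in curcumin cells and 953.6 and 1006 FPKM in control cells (0.76, adjusted p = 0.134), a mean difference of 684.1 FPKM that was the largest gain in level among the 100 genes at the study's threshold. The ferritin heavy chain FTH1 had 191.7 and 159.8 FPKM in curcumin cells and 119.3 and 113.6 FPKM in control cells (0.58, adjusted p = 0.0944). Ferritin genes have many near-identical pseudogenes in the genome, so their levels depend on how shared reads were assigned and are uncertain. PIR, an iron-binding nuclear protein (0.67), and ABCC3, an exporter of conjugates (0.51), reached it as well. HMOX1, heme oxygenase and the best known inducible member, was low, with 3.229 and 3.003 FPKM in curcumin cells and 2.436 and 1.696 FPKM in control cells (0.43, adjusted p = 0.284). PRDX1, UGDH and CBR1 were near 0, at 0.05, 0.01 and 0.08.

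To show the DNA that NRF2 is known to read, RefSeq promoter windows (250 bases before to 50 after a start site, GRCh38.p14) were searched on both strands for the antioxidant response element core TGACNNNGC. Of the 20 NRF2 targets with a window, 7 held it (35%), against 19.6% of the 8601 measured genes with a window and 16.1% of all 27305. Among called genes with a window, 5 of 14 called higher held it (35.7%), and so did 4 of 14 called lower (28.6%). A match is a description of letters and not evidence of binding. The stretches of 100 bases around the match are printed for TXNRD1, called higher, and for GCLM and ME1, which were higher in both curcumin libraries without passing the adjusted threshold. Capitals mark the match, on either strand.
TXNRD1 (chr12:104215634-104215733, plus strand): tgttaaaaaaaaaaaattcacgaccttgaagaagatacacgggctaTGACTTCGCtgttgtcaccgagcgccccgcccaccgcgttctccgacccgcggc
GCLM (chr1:93909431-93909530, minus strand): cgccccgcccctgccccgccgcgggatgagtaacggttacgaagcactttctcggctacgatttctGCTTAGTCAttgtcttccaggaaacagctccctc
ME1 (chr6:83431135-83431234, minus strand): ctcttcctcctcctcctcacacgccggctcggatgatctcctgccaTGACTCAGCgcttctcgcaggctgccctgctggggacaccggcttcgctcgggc
The GCLM match lies on the opposite strand of the gene. GCLM, the modifier subunit beside GCLC, had 12.5 and 12.8 FPKM in curcumin cells and 10.6 and 10.5 FPKM in control cells (0.24, adjusted p = 0.133), and ME1, malic enzyme, had 25.0 and 29.3 FPKM in curcumin cells and 20.8 and 21.2 FPKM in control cells (0.35, adjusted p = 0.184).

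Genes of the integrated stress response were also higher. Of 28 measured, 2 passed the adjusted threshold and 5 the study's threshold, all higher, and both curcumin libraries lay above both control libraries in 21 and below in 1 (list median 0.22). At an unadjusted p under 0.05, 16 were higher and 0 lower. Over the 10537 genes, 0.38% passed the adjusted threshold, 0.949% the study's threshold and 14.7% an unadjusted p under 0.05, and 21.8% lay above and 29.7% below. PPP1R15A, the stress-inducible subunit that directs a phosphatase to eIF2 alpha, had 77.2 and 72.1 FPKM in curcumin cells, against 40.7 and 38.9 FPKM in control cells (0.89 ± 0.07, adjusted p = 0.0251). DDIT3, the transcription factor CHOP, had 47.0 and 49.2 FPKM in curcumin cells and 25.4 and 27.2 FPKM in control cells (0.85 ± 0.09, adjusted p = 0.0338). Their means were 1.88-fold and 1.83-fold those of control cells. The pseudokinase TRIB3 had 99.8 and 111.3 FPKM in curcumin cells and 66.0 and 64.8 FPKM in control cells (0.68, adjusted p = 0.105), and the secreted stress cytokine GDF15 had 33.8 and 34.4 FPKM in curcumin cells and 21.8 and 22.2 FPKM in control cells (0.61, adjusted p = 0.0833). The transcription factor CEBPB (0.57, adjusted p = 0.126) completes the 5 at the study's threshold. The members were not uniform. The amino acid synthesis enzymes ASNS (0.04), PSPH (0.04), PHGDH (0.07) and SHMT2 (-0.05) and the amino acid transporter SLC7A5 (-0.04) were near 0, and ATF4 itself had 119.6 and 128.9 FPKM in curcumin cells and 102.2 and 107.6 FPKM in control cells (0.24, adjusted p = 0.383).

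The amino acid response element core TGATGNAA, a sequence read by ATF4 with its partners, was found in 6 of 22 promoters of this list (27.3%), against 2.56% of the measured genes and 4.46% of all promoters. It is shown for ASNS and CHAC1, a pair that held the letters while their levels changed little.
ASNS (chr7:97872423-97872522, minus strand): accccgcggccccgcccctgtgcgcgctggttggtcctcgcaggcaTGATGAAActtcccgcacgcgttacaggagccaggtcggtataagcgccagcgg
CHAC1 (chr15:40953221-40953320, plus strand): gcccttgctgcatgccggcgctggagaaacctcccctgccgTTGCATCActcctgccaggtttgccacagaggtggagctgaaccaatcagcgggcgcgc
ASNS, asparagine synthetase, had 3.89 and 4.35 FPKM in curcumin cells and 3.85 and 4.13 FPKM in control cells. CHAC1, a glutathione-degrading enzyme, had 3.37 and 4.16 FPKM in curcumin cells and 3.21 and 3.10 FPKM in control cells (0.19, adjusted p = 0.511), and its match lies on the opposite strand.

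Other genes called higher included NIBAN1, GTPBP2, GARS1 and HYOU1. NIBAN1, a stress-inducible regulator of translation, had 26.55 and 23.90 FPKM in curcumin cells and 14.66 and 14.36 FPKM in control cells (0.76 ± 0.07, adjusted p = 0.0338). GTPBP2, a GTP-binding protein linked to the rescue of stalled ribosomes, had 17.33 and 16.95 FPKM in curcumin cells and 11.21 and 11.64 FPKM in control cells (0.55 ± 0.05, adjusted p = 0.0338). GARS1, glycyl-tRNA synthetase, had 41.1 FPKM in both curcumin libraries and 32.1 and 31.7 FPKM in control cells (0.36 ± 0.04, adjusted p = 0.0453). GARS1 was the only tRNA synthetase of 18 that passed, while in 14 of the 18 both curcumin libraries lay above both control libraries and in 1 below (list median 0.18), among them WARS1 (0.42, adjusted p = 0.0833). Of 21 endoplasmic reticulum chaperones and genes of the unfolded protein response, 1 passed, HYOU1, a chaperone of the HSP110 family, with 47.5 and 46.8 FPKM in curcumin cells and 34.1 and 33.7 FPKM in control cells (0.46 ± 0.05, adjusted p = 0.0338). The main chaperone HSPA5 had 177.2 and 166.7 FPKM in curcumin cells and 136.0 and 135.6 FPKM in control cells (0.34, adjusted p = 0.114), and 15 of the 21 genes had both curcumin libraries above control and 2 below (median 0.11). Cytosolic heat shock chaperones did not share this shift: none of 17 passed either threshold in limma (2 at an unadjusted p under 0.05), 4 lay above and 5 below, and the median of -0.01 became 0.02 after libraries were scaled to the same median. Of the 10537 genes, 21.8% lay above, 29.7% below and 14.7% had an unadjusted p under 0.05, so the heat shock counts were near the background. A heat shock element was nonetheless in 6 of 16 promoters of the heat shock list (37.5%), against 0.442% of the measured genes.

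Further genes called higher were MTRNR2L8 (0.69), AKNA (0.67), FLNC (0.66) and SLC44A2 (0.58). The transcription factor AKNA had 5.62 and 5.63 FPKM in curcumin cells and 3.22 and 3.09 FPKM in control cells. The choline transporter SLC44A2 had 8.21 and 7.98 FPKM in curcumin cells and 4.82 and 5.31 FPKM in control cells. The actin crosslinker FLNC was at 1.96 and 2.01 FPKM in curcumin cells and 0.890 FPKM in both control libraries, the lowest level of the 17. MTRNR2L8 had 59.3 and 55.5 FPKM in curcumin cells and 35.1 and 35.2 FPKM in control cells, but it is a nuclear near-copy of the mitochondrial 16S ribosomal RNA gene MT-RNR2, which had 16565 and 17248 FPKM in curcumin cells and 14372 and 14223 FPKM in control cells, so its reads cannot be told apart from those of MT-RNR2 and its level is uncertain.

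The study followed ferroptosis, a form of cell death driven by iron-dependent lipid peroxidation, and its genes changed unevenly in SW480 cells. Of 31 ferroptosis genes measured, 1 passed the adjusted threshold (GCLC) and 2 the study's threshold (FTL and FTH1), all higher and all also on the NRF2 list. Both curcumin libraries lay above both control libraries in 16 genes and below in 10, and the median was 0.04. Of the 10537 genes, 21.8% lay above and 29.7% below. At an unadjusted p under 0.05 in limma, 10 of the 31 were higher and 3 lower, against 14.7% of the 10537 genes in either direction. GPX4, the peroxidase that reduces lipid peroxides, had 69.1 and 73.1 FPKM in curcumin cells and 64.7 and 68.9 FPKM in control cells (0.09 ± 0.12, adjusted p = 0.846). AIFM2, the ubiquinone reductase FSP1 that acts in parallel to GPX4, had 12.4 and 13.5 FPKM in curcumin cells and 9.73 and 9.79 FPKM in control cells (0.37 ± 0.07, adjusted p = 0.124). In both genes each curcumin library lay above each control library, by a narrow margin for GPX4, and neither passed either threshold. SLC7A11, the cystine importer, had 10.4 and 10.1 FPKM in curcumin cells and 8.31 and 8.20 FPKM in control cells (0.28, adjusted p = 0.310). ACSL4, which loads polyunsaturated fatty acids for membrane lipids, had 60.9 and 65.5 FPKM in curcumin cells and 76.1 and 75.5 FPKM in control cells (-0.26, adjusted p = 0.127), and the metal importer SLC39A8 had 8.22 and 8.35 FPKM in curcumin cells and 11.8 and 10.9 FPKM in control cells (-0.41, adjusted p = 0.112).

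Wnt target genes were lower with curcumin as a group, in a list that was also chosen with earlier results known. Of 22 measured, 4 passed the adjusted threshold and 7 the study's threshold, all lower. Both curcumin libraries lay below both control libraries in 17, against 29.7% of the 10537 genes, and above in 1, and the median log2 fold change was -0.29. At an unadjusted p under 0.05, 13 were lower and 0 higher, against 14.7% of the 10537 genes in either direction. DKK4, a secreted Wnt inhibitor, had 5.224 and 7.003 FPKM in curcumin cells, against 15.39 and 15.15 FPKM in control cells (-1.21 ± 0.15, adjusted p = 0.0453). APCDD1, a membrane inhibitor of Wnt signalling, had 30.9 and 29.9 FPKM in curcumin cells and 50.1 and 51.4 FPKM in control cells (-0.72 ± 0.05, adjusted p = 0.0251). Both are feedback inhibitors that active Wnt signalling is known to induce. PROX1, a homeobox transcription factor, had 6.64 and 6.16 FPKM in curcumin cells and 11.5 and 11.2 FPKM in control cells (-0.74 ± 0.07, adjusted p = 0.0338). TNFRSF19, the receptor TROY, had 5.49 and 5.84 FPKM in curcumin cells and 9.86 and 10.2 FPKM in control cells (-0.73 ± 0.07, adjusted p = 0.0338).

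NKD1, an inhibitor that binds Dishevelled, reached the study's threshold with 27.0 and 22.7 FPKM in curcumin cells and 40.6 and 39.2 FPKM in control cells (-0.67, adjusted p = 0.0730), as did the co-receptor TDGF1 (-0.82, adjusted p = 0.0604) and the transcription factor SP5 (-0.55, adjusted p = 0.122). AXIN2, a component of the beta-catenin destruction complex and a widely used readout, had 90.6 and 84.0 FPKM in curcumin cells and 113.0 and 112.0 FPKM in control cells (-0.36, adjusted p = 0.107). Of 11 promoters of this list, the TCF/LEF core ATCAAAG was in 1 (9.09%), against 2% of the measured genes and 3.18% of all promoters. That promoter is SP5, shown here with the match in capitals on the opposite strand.
SP5 (chr2:170715181-170715280, plus strand): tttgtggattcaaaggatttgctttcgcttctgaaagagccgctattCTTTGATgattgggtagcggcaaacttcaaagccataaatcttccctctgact
SP5 had 21.8 and 17.3 FPKM in curcumin cells and 29.2 and 28.7 FPKM in control cells.

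Of the other 19 genes called lower, MYH7B, a myosin heavy chain, had the largest fall, with 2.98 and 2.66 FPKM in curcumin cells and 9.39 and 9.86 FPKM in control cells (-1.48 ± 0.09, adjusted p = 0.0190). UROC1, urocanate hydratase of histidine breakdown, had 3.21 and 3.31 FPKM in curcumin cells and 6.67 and 6.96 FPKM in control cells (-0.88 ± 0.08, adjusted p = 0.0338). The membrane protein ANO4 had 2.874 and 2.702 FPKM in curcumin cells and 5.722 and 5.643 FPKM in control cells (-0.82 ± 0.09, adjusted p = 0.0338). These 3 were below 4 FPKM in both curcumin libraries. TNFRSF11B, osteoprotegerin, a decoy receptor for RANKL and TRAIL, had 15.9 and 18.2 FPKM in curcumin cells and 30.5 and 30.3 FPKM in control cells (-0.80 ± 0.07, adjusted p = 0.0338). MPZL2, an epithelial adhesion protein, had 29.5 and 34.1 FPKM in curcumin cells and 52.9 and 54.7 FPKM in control cells (-0.74 ± 0.08, adjusted p = 0.0338). SESN3, a sestrin, had 5.33 and 5.93 FPKM in curcumin cells and 10.6 and 9.90 FPKM in control cells (-0.76 ± 0.09, adjusted p = 0.0344), whereas its relative SESN2 on the stress list had 10.2 and 9.96 FPKM in curcumin cells and 6.47 and 7.23 FPKM in control cells (0.50, adjusted p = 0.0732).

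In absolute level the largest loss among genes at the study's threshold was that of KRT5, a basal keratin, with 192.2 and 181.7 FPKM in curcumin cells and 279.9 and 283.2 FPKM in control cells (-0.59 ± 0.06, adjusted p = 0.0338). The secreted glycoprotein NELL2 had 70.6 and 67.4 FPKM in curcumin cells and 105.5 and 104.7 FPKM in control cells (-0.60 ± 0.06, adjusted p = 0.0338). PAM, the enzyme that amidates peptide hormones, had 36.3 and 34.3 FPKM in curcumin cells and 54.8 and 54.1 FPKM in control cells (-0.61 ± 0.05, adjusted p = 0.0327). PCSK1, a prohormone convertase, was lower as well, with 14.7 and 13.9 FPKM in curcumin cells and 21.1 and 20.9 FPKM in control cells (-0.53 ± 0.06, adjusted p = 0.0361). PAM and PCSK1 act in successive steps of peptide hormone maturation. The palmitoyltransferase ZDHHC20 (-0.43), the collagen-binding integrin ITGA1 (-0.48), VWA2 (-0.46), the GABA receptor subunit GABRA3 (-0.55), the neurotrophin BDNF (-0.56), ASPSCR1 (-0.61), the guidance cue SEMA3A (-0.62), the retroviral envelope-derived ERVMER34-1 (-0.62) and GPR155 (-0.79) complete the 23.

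Growth factors moved in both directions. Of 12 EGFR ligands and secreted growth factors, BDNF was called lower, while HBEGF, AREG and GDF15 reached the study's threshold as higher. Among the 10537 genes, 0.38% passed the adjusted threshold and 0.949% the study's threshold. GDF15 was already counted with the integrated stress response. HBEGF had 5.51 and 5.05 FPKM in curcumin cells, against 2.46 and 2.68 FPKM in control cells (0.82, adjusted p = 0.0553). AREG, amphiregulin, was low, with 1.49 and 1.45 FPKM in curcumin cells and 0.661 and 0.785 FPKM in control cells (0.52, adjusted p = 0.0847). FOSL1, an AP-1 subunit and the member of the ERK-responsive list that reached the study's threshold, had 80.5 and 78.5 FPKM in curcumin cells and 49.6 and 53.6 FPKM in control cells (0.61, adjusted p = 0.0833), while of the 23 genes of that list 7 lay above and 10 below. The shares over the 10537 genes were 21.8% above and 29.7% below. Of 15 NF-kB targets and chemokines, LCN2 was called higher and TNFRSF11B lower, and the remaining 13 passed neither threshold.

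Cholesterol synthesis genes were lower by small amounts. None of 24 passed either threshold, yet both curcumin libraries lay below both control libraries in 20 and above in 0, and the median was -0.22. At an unadjusted p under 0.05 in limma, 12 were lower. HMGCS1, which makes the pathway's precursor HMG-CoA, had 4.61 and 4.75 FPKM in curcumin cells and 6.41 and 5.80 FPKM in control cells (-0.32, adjusted p = 0.114). Of 11 interferon-response genes 8 lay below and 1 above (median -0.18), and IFITM1 reached the study's threshold (-0.58, adjusted p = 0.124). Only 2 of the 11 were lower at an unadjusted p under 0.05 in limma and 0 higher, near the share over all genes. Of 26 mitosis genes, none passed either threshold, 7 were lower at an unadjusted p under 0.05, and 19 lay below and 0 above, with a median of -0.14. The topoisomerase TOP2A had 142.1 and 130.7 FPKM in curcumin cells and 162.6 and 156.8 FPKM in control cells (-0.23, adjusted p = 0.214). In the DNA replication list, MCM7, a subunit of the replicative helicase, had 95.5 and 94.0 FPKM in curcumin cells and 131.9 and 128.2 FPKM in control cells (-0.45, adjusted p = 0.0519), while the median of the 35 genes was -0.06. Of these 35 genes 16 lay below and 3 above, and 3 were lower and 0 higher at an unadjusted p under 0.05 in limma. Beside the counts of these lists, 29.7% of the 10537 genes lay below, 21.8% above and 14.7% had an unadjusted p under 0.05.

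Other lists showed little net shift. Of 23 p53 target genes, 7 lay above and 10 below (median -0.07). At an unadjusted p under 0.05 in limma, 4 of the 23 were higher and 4 lower, so single genes of this list moved both ways. GDF15 (0.61) was the 1 that reached the study's threshold, which 0.949% of the 10537 genes did. The shares over the 10537 genes were 21.8% above, 29.7% below and 14.7% at an unadjusted p under 0.05 in limma. CDKN1A, the cell cycle inhibitor p21, had 18.75 and 20.03 FPKM in curcumin cells and 15.1 and 15 FPKM in control cells (0.34, adjusted p = 0.227), and the TRAIL receptor TNFRSF10B had 29.9 and 28.4 FPKM in curcumin cells and 23.4 FPKM in both control libraries (0.30, adjusted p = 0.0913). Of 14 BCL2 family genes, BMF, a pro-apoptotic member, reached the study's threshold (-0.52, adjusted p = 0.0758), and the list median was 0.05. None of 8 metallothionein and zinc-response genes passed either threshold in limma (median -0.03, 0 at an unadjusted p under 0.05), nor did any of 40 ribosomal protein genes (-0.02, 0), 12 matrix and invasion genes (-0.01, 4) or 12 fatty acid synthesis genes (-0.07, 5). With libraries scaled to the same median, 3 of these 4 medians turned positive (0.00, 0.01 and 0.03), that of fatty acid synthesis excepted. Among 22 glycolysis and hypoxia genes the median was -0.01 (0.02 after scaling), and the hypoxia-inducible ANKRD37 reached the study's threshold (-0.51). Of 26 autophagy and lysosome genes 11 lay above and 5 below, with LAMP3 as the called member. Of 27 replication-dependent histone genes, 2 reached the study's threshold as lower (H2BC14 and H4C1), but they share near-identical copies and their levels are uncertain. The 13 mitochondrially encoded genes had a median of 0.12, and mitochondrial transcripts made up 37.97% and 36.82% of the protein-coding FPKM in curcumin cells and 32.82% and 37.3% in control cells. The first control library stood apart here: the median was 0.01 without it and 0.28 without the second control library.

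**Figure D3:**
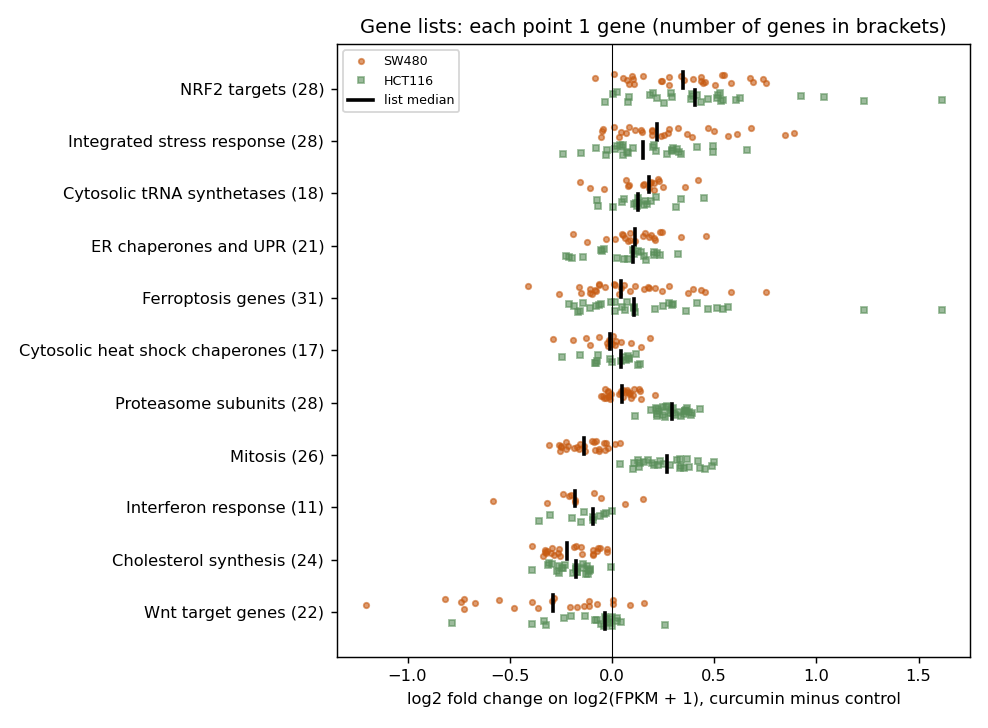
Log2 fold changes (curcumin minus control, on log2(FPKM + 1)) of every measured gene in 11 gene lists, SW480 above HCT116, with black bars at the list medians. In SW480 cells the medians run from 0.35 for NRF2 targets to -0.29 for Wnt target genes, and the mitosis list lies below 0 in SW480 (-0.14) and above it in HCT116 (0.27).

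The fold changes of HCT116 cells took no part in choosing these genes, although their libraries share the estimate of spread. A small shared spread favours a call in both lines, so the HCT116 counts below are not independent of the choice. The genes were also chosen for their change in SW480 cells, which enlarges their SW480 medians. The medians below therefore do not show that the response was weaker in HCT116 cells. All 17 genes called higher in SW480 cells were at 1 FPKM or more in at least 2 HCT116 libraries, and in 14 of them both HCT116 curcumin libraries lay above both controls, with 0 below, against 21.0% above for all 10537 genes. Their median log2 fold change was 0.69 in SW480 and 0.47 in HCT116 cells, and 6 of them passed the adjusted threshold in HCT116 cells, against 0.209% of the 10537 genes and 0.171% of all genes tested. Of 23 genes called lower in SW480 cells, 14 were under that level in HCT116 cells, among them DKK4, APCDD1, PROX1, TNFRSF19, KRT5 and NELL2, so no response could be measured there. Of the 9 that were measured, 8 had both HCT116 curcumin libraries below both controls and 0 above, against 19.4% below among the 9681 genes measured in both lines, with medians of -0.62 in SW480 and -0.24 in HCT116 cells. The exception, MPZL2, had 4.11 and 3.95 FPKM in HCT116 curcumin cells and 4.06 and 4.54 FPKM in HCT116 control cells.

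UPP1 differed by nearly the same amount in both lines, with 13.44 and 13.28 FPKM in HCT116 curcumin cells and 4.089 and 4.497 FPKM in HCT116 control cells (1.44, beside 1.42 in SW480). BDNF had 2.93 and 2.82 FPKM in HCT116 curcumin cells and 4.53 and 4.70 FPKM in HCT116 control cells (-0.54, beside -0.56). FLNC had 13.82 and 13.90 FPKM in HCT116 curcumin cells and 13.61 and 14.36 FPKM in HCT116 control cells (-0.01, beside 0.66 in SW480), and SLC44A2 likewise differed little there (-0.02, beside 0.58). The difference between the lines was tested by an interaction contrast, and 0 of the 10537 genes passed after adjustment in limma (933, or 8.85%, had an unadjusted p under 0.05). With an adjustment over protein-coding genes alone 36 passed, and 8 and 20 passed with a filter at 10 FPKM and a pseudocount of 10. Differences between the lines at single genes are therefore given as values. The NRF2 list had a median of 0.41 in HCT116 cells and the cholesterol synthesis list of -0.18, close to 0.35 and -0.22 in SW480. The mitosis list had 23 of 26 genes above control and 0 below in HCT116 cells, and the proteasome list 25 of 28 above (median 0.29), and 7 of 28 above in SW480 cells (median 0.05). Over the 10537 genes, 21.0% lay above control in HCT116 and 21.8% in SW480 cells, so the SW480 proteasome count was near the background.

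**Figure D4:**
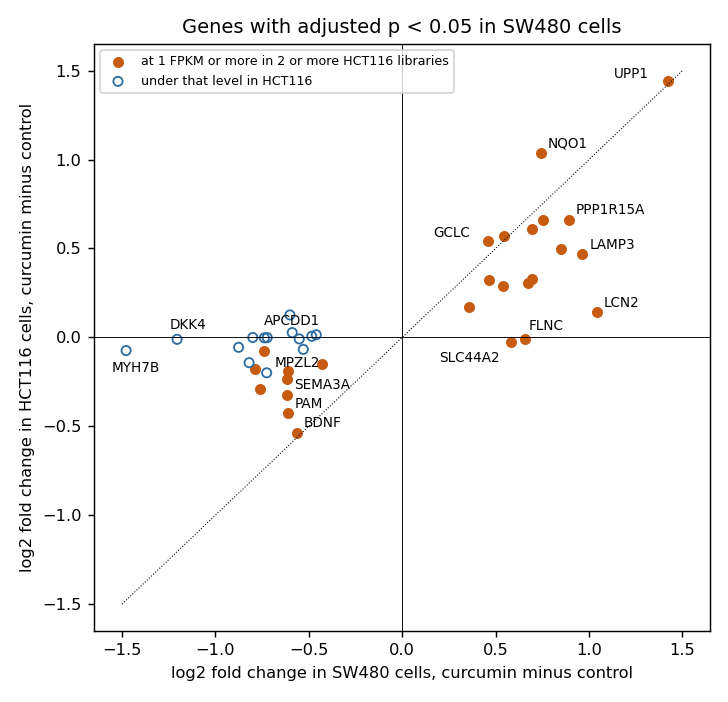
Log2 fold change in HCT116 cells (vertical) against that in SW480 cells (horizontal), both curcumin minus control, for the 40 genes with an adjusted p under 0.05 in SW480 cells; the dotted line marks equal change. Filled points reached 1 FPKM in at least 2 HCT116 libraries and open circles, 14 of the 23 lower genes, did not and lie near 0 in HCT116.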

How the data were processed

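RNA sequencing libraries of SW480 and HCT116 cells treated with curcumin or not (2 per group, 8 in all) were analysed. The authors prepared libraries from total RNA with a TruSeq kit, and the deposited table gives log2(value + 1) per gene. The submitters' processing notes name the aligner STAR 2.7.8a, the Partek 10.0.22.0121 software, bcl2fastq 2.20.0.422, DESeq2 and the build GRCh38, with no order. The counting tool and annotation are not given in the sources used here. FPKM was inferred: in low microRNA genes, 97.54% to 98.68% of back-transformed values per library were whole multiples of a step per gene (within 0.01 times the read number, up to 20 reads). The steps gave the depth, so depth is approximate and no count test was run.

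Groups came from the sample labels. limma 3.58.1 in R 4.3.3 (lmFit, eBayes with trend) was fitted on log2(FPKM + 1) of all 8 libraries with 4 group means and no block (4 residual degrees of freedom), over 16341 genes with 1 FPKM or more in at least 2 libraries, two-sided, with Benjamini-Hochberg adjustment over all of them. Python 3.11.15, pandas 2.3.3 and matplotlib 3.10.9 served for tables and figures. The procedure was tested on simulated data. Motifs were searched in RefSeq promoters (28 of the 40 genes called had one).

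The genes, the 29 gene lists and the tests were chosen with earlier results of these data known. Named were GPX4, AIFM2 and GAPDH, the 12 largest changes each way among called genes with separated groups and at least 5 FPKM in the higher group, the other called genes, up to 6 genes per list by p, and the 5 largest level changes each way. AXIN2, ATF4, SP5, HMOX1, SLC7A11, CEBPB, ABCC3, ANKRD37 and those shown for a promoter or for a value near 0 were named after their values were seen. Alternatives were a replicate block, scaling to the same median, no trend, no filter, filtering at 10 FPKM, a pseudocount of 0.1 or 10, protein-coding genes alone, the 4 SW480 libraries alone and each library left out. The andrographis table was not used here. Some genes that met the naming rule are not reported here.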

Additional observations from a re-analysis of the deposited data

Results flagged for a closer look

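For 20 named genes, out of 187 that met the naming rule, both curcumin libraries lay on one side of their controls in SW480 cells and on the opposite side in HCT116 cells. By the interaction contrast in limma none of these differences passed after adjustment (lowest adjusted p = 0.192). Over the 10537 genes, 21.8% lay above and 29.7% below in SW480 cells, and 21.0% and 19.6% in HCT116 cells. The share with opposite sides was not computed, so no background can be set beside the 20. Mitosis and replication genes made up 9 of the 20, lower in SW480 and higher in HCT116 cells. List genes were named by their p in SW480 cells, so that count depends on the naming rule. Their log2 fold changes in SW480 cells were ANLN -0.25, KIF20A -0.31, KIF11 -0.21, TOP2A -0.23, CENPA -0.25, AURKA -0.13, RRM2 -0.20, TYMS -0.14 and RRM1 -0.13, beside 0.10, 0.19, 0.11, 0.13, 0.22, 0.45, 0.35, 0.23 and 0.13 in HCT116 cells in the same order. ALDOA (-0.23) and TGFA (-0.14) were also lower in SW480 and higher in HCT116 cells (0.29 and 0.13). ALDOA was low, with 1.22 and 0.92 FPKM in SW480 curcumin cells and 1.47 and 1.37 FPKM in SW480 control cells. In HCT116 cells it had 2.11 and 2.07 FPKM with curcumin and 1.72 and 1.35 FPKM in controls, so its values carry little information.

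The stress-induced transcription factor ATF3 was 0.39 in SW480 and -0.24 in HCT116 cells, with an unadjusted difference that did not hold after adjustment (adjusted p = 0.192). HK2 (0.24 in SW480, -0.24 in HCT116), DHODH (0.24 and -0.15), HRK (0.17 and -0.09) and the mitochondrial MT-ATP6 (0.28 and -0.14), MT-CO2 (0.26 and -0.03) and MT-ND4 (0.26 and -0.11) ran the same way. HRK was low in HCT116 cells, with 0.92 and 0.86 FPKM in curcumin libraries and 0.99 and 1.04 FPKM in control libraries. VWA2 (-0.46 in SW480, 0.01 in HCT116) and NELL2 (-0.60 and 0.13) were under 1 FPKM in every HCT116 library, so their HCT116 values carry little information.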

How the results depend on the processing

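With 2 libraries per group the adjusted counts are unstable. All called genes kept their direction under every alternative in which they were tested (31 of the 40 with a filter at 10 FPKM, otherwise 40), but the groups overlap in none of them, so leaving out a library could not turn it. The number called, 40 by limma as described, was 21 (8 up, 13 down) after every library was scaled to 1 median, 17 without the trend, 0 without a filter, 141 with a filter at 10 FPKM (65 up, 76 down, fewer genes tested), 15 with a pseudocount of 0.1 (12 up, 3 down), 161 with a pseudocount of 10 (40 up, 121 down), 302 with protein-coding genes alone (106 up, 196 down, all 40 among them) and 0 with the 4 SW480 libraries alone. It ranged from 0 to 15 with any 1 library left out, and the cause was not tested. At an unadjusted p under 0.05, 1549 genes passed.

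The count at the study's threshold, 100, was 49 with a filter at 10 FPKM, 165 at pseudocount 0.1, 26 at pseudocount 10, and 94 with scaled libraries (45 up, 49 down, beside 39 up and 61 down). It ranged from 99 to 128 with 1 library left out. The interaction count, 0, was 8 with a filter at 10 FPKM, 20 with a pseudocount of 10 and 36 with protein-coding genes alone.

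Replicate numbers name libraries only: deviations of same-numbered SW480 libraries correlated at 0.14, those of HCT116 at 0.44, and no label says that a number marks a shared batch. With the replicate block 0 genes passed the adjusted threshold and 101 the study's.

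Only values near 0 changed sign. After scaling, GAPDH was 0.024 and MTF1 0.0051. Over the fits with 1 SW480 library left out, GAPDH ranged from -0.037 to 0.014, MT1F from -0.23 to 0.035, MTF1 from -0.11 to 0.063, CLDN4 from -0.18 to 0.014 and CLDN3 from -0.15 to 0.030. Scaling raised the medians of the 27 lists by 0.02 to 0.04, which turned the sign of 6 lists whose medians were within 0.03 of 0. The NRF2 median was 0.17 with a pseudocount of 10, which shrinks the change of low genes. Depth per library, 9.4 M to 23.11 M, limits genes under a few FPKM most.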
